A study of Homo sapiens with 6 samples.

Results

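The mitochondrial genome is a small circular DNA with its own genes for respiratory chain subunits, ribosomal RNAs and transfer RNAs. All rows placed on chromosome MT in the deposited gene table were taken, which gave 37 of 58735 genes: 13 protein-coding genes, 2 rRNA genes and 22 tRNA genes. Their positions, strands and lengths were the same as in GENCODE release 29 for 37 of 37 genes. The study sequenced poly-A enriched RNA of A375, a human malignant melanoma cell line, in 2 groups of 3 libraries. The PAL libraries came from A375 cells treated with Ringer's lactate solution activated by low-temperature plasma, and the control libraries from A375 cells labelled as control. Both groups share the line, the column extraction and the poly-A enrichment. The deposited columns of the PAL libraries carry the number 64 in their names, with no unit or meaning given. The sample labels name no dose, exposure time or control solution and do not say whether replicates were separate cultures, so each p-value measures only how these libraries spread, and that spread may be technical.

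Transcription of this genome runs around both strands from promoters in its noncoding region and yields long polycistronic RNAs. Most mRNAs and both rRNAs in these RNAs are flanked by tRNAs, which RNase P and ELAC2 cut out, so neighbouring genes start from the same primary transcript and reach separate levels through processing, polyadenylation and decay. The genes transcribed from the heavy strand are annotated on the plus strand, 28 in all. Those from the light strand are annotated on the minus strand, 9 in all: MT-ND6 and 8 tRNAs. Mature tRNAs are short and are not purified by poly-A selection as mRNAs are. Reads in tRNA genes may therefore come from longer RNAs, and their source was not tested.

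Reads assigned to genes ranged from 15064971 to 17711389 per library, of which 286000 to 349747 were mitochondrial. The libraries labelled control were the ones with high HSPA6, an HSP70 chaperone induced by stress. It stood at 1882 ± 171 FPKM (SD, n = 3) there, against 40.4 ± 28.6 in those labelled PAL. The design has no targeted gene that could check the labels. Each direction given below rests on these labels and would turn if they were exchanged. Of 13 melanoma and neural crest markers, 8 reached a mean of 1 FPKM in either group, among them SOX10 at 88.1 FPKM in control and AXL at 61.7, while TYR was at 0 in each library. Markers of endothelial (0 of 4) and immune (0 of 5) cells did not reach that level. KRT10 and KRT14 of 5 keratinocyte markers and LUM of 6 fibroblast markers did. The summed level was 260.4 to 269 FPKM in control and 288 to 295 in PAL for the melanoma list, and 31.5 to 36.4 and 30.8 to 33.4 for the keratinocyte list. Single melanoma markers moved both ways. In PAL the mean of SOX10 was 107.6 FPKM and that of AXL 68.6. ERBB3 went from 19.6 in control to 17.5 in PAL, and S100B from 5.18 to 4.03.

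Sequences of some members are given for reference and were not part of any test. The tRNA genes whose level was lower in each PAL library than in each control library are given first. Among them, MT-TP did not pass the test described below, and MT-TT and MT-TN entered it through the control libraries alone. MT-TV, which was higher in each PAL library, is not shown. The sequences are the genomic DNA sense strand from the GENCODE transcripts (GRCh38), with the anticodon in capitals. It was located as the known triplet directly after a T within bases 28 to 40, with 1 match in each gene. MT-TT is on the heavy-strand transcript and the other 5 are on the light-strand transcript.
MT-TT (threonine, positions 15888 to 15953, plus strand): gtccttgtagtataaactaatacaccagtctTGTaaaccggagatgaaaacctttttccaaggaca
MT-TP (proline, positions 15956 to 16023, minus strand): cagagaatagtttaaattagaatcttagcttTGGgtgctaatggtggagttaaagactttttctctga
MT-TE (glutamate, positions 14674 to 14742, minus strand): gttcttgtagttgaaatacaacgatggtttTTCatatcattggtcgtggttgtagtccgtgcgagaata
MT-TY (tyrosine, positions 5826 to 5891, minus strand): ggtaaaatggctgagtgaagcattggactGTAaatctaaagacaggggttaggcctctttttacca
MT-TN (asparagine, positions 5657 to 5729, minus strand): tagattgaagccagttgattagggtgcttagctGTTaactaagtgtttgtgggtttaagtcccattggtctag
MT-TQ (glutamine, positions 4329 to 4400, minus strand): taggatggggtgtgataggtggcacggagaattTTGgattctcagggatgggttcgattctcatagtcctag

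The ends of the mRNA genes are shown next, since the results are also grouped by how a gene ends. Each line gives the last 18 bases, with the annotated stop letters in capitals. A gene that ends in T or TA gains its TAA stop codon only when the poly-A tail is added.
MT-CO1: gtatacataaaatctAGA
MT-ND6: attgctcgggggaatAGG
MT-ND5: ctactcctaatcacaTAA
MT-CO2: cccgtatttaccctaTAG
MT-ND4L: aacctactccaatgcTAA
MT-ATP6: ctgcacgacaacacaTAA
MT-ND2: ttatactaataatcttaT
MT-CYB: aaatactcaaatgggccT
MT-ND4: ttaccgggttttcctctT
Of the 13 mRNA genes, 7 hold a whole stop codon and 6 end in T or TA.

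Between PAL and control the mitochondrial genes moved both ways. The test was limma on log2(FPKM + 1), PAL minus control, where FPKM is reads scaled by gene length and library size. The library size in the deposited FPKM was 0.980 to 0.984 times the assigned reads in control and 1.040 to 1.047 times in PAL. The test took in the 12258 genes that reached 1 FPKM in 3 or more libraries. A gene passed at a Benjamini-Hochberg adjusted p below 0.05 over all genes tested. Of the 37 mitochondrial genes 30 were tested, and 5 were higher and 10 lower in PAL. Over all genes tested, 11.4% were higher and 14.5% lower. The groups did not overlap in 19 of the 30, against 44.9% of all genes tested. Abundant genes are measured with less counting error, and the median log2 change was -0.08 for the 30 members and 0.00 for all genes tested. The 2 tRNA genes MT-TT and MT-TN reached 1 FPKM in control libraries alone, so they entered the test through the group where they were high and had to differ. Without them, 5 of 28 were higher and 8 lower. MT-TT and MT-TN are also among the 19 without overlap, an outcome that their entry fixed in advance. The share of rises among all calls moved with the scaling, from 44.0% with the values as deposited to 59.2% after quantile normalization, 69.7% as TPM and 73.3% with plain read totals. The members' counts were then 8 higher and 10 lower, 7 and 10, and 7 and 8.

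**Figure D1:**
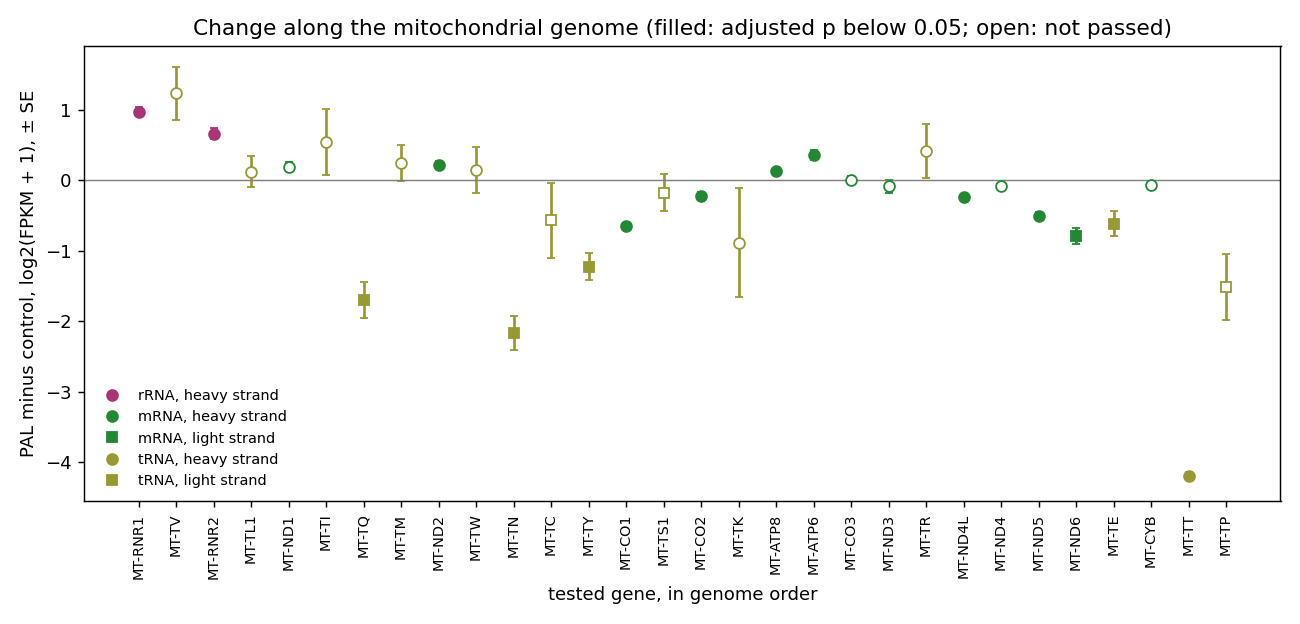
Change of the 30 tested mitochondrial genes in genome order (x axis), as PAL minus control on the log2(FPKM + 1) scale with SE (y axis); circles are heavy-strand and squares light-strand genes, and filled symbols passed at an adjusted p below 0.05. The 2 rRNA genes lie above 0 at 0.98 and 0.67, the 8 light-strand genes lie below 0, and MT-TT, with 0 reads in PAL, is the lowest point.

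The share of reads on the mitochondrial genome as a whole overlapped between the groups. In control replicates 1, 2 and 3 it held 1.90%, 1.90% and 1.96% of assigned reads, and in PAL replicates 1, 2 and 3 it held 1.99%, 2.14% and 1.93%. PAL replicate 3 lay within the control range, and the difference of 0.104 percentage points did not pass (exact permutation test, two-sided, p = 0.20, where 3 against 3 allows no less than 0.10). By summed FPKM in place of reads the difference was 0.394 percentage points, with the same p. These are relative levels: a change in the number of mitochondrial genomes or cells and a change in RNA per genome or cell cannot be told apart.

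Ribosomal RNA rose. MT-RNR1 (positions 648 to 1601), the RNA of the small mitochondrial ribosomal subunit, stood at 619.4, 620.3 and 647.8 FPKM in control and 1234.9, 1365.6 and 1130.5 FPKM in PAL. MT-RNR2 (positions 1671 to 3229), that of the large subunit, stood at 879, 847 and 709.6 FPKM in control and 1258, 1358 and 1238 FPKM in PAL. In both genes each PAL library lay above each control library. The log2 change was 0.98 ± 0.06 (SE, adjusted p in limma 1.20e-04) for MT-RNR1 and 0.67 ± 0.08 (adjusted p in limma 0.00188) for MT-RNR2. As a share of mitochondrial reads the pair went from 9.57% ± 0.829 to 16.4% ± 0.241 (SD, n = 3 each, exact permutation test, two-sided, p = 0.10, the smallest it allows).

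The rRNAs carry short tails at most, so nuclear RNAs of classes that mostly lack a poly-A tail were set beside them. Whether each listed RNA, the histone RNAs included, lacked a tail here was not tested. From that list 20 of 43 genes were tested, and 5 were higher and 4 lower in PAL, against 11.4% higher and 14.5% lower over all genes tested, with a median log2 change of 0.06. SNORA73B, a small nucleolar RNA, went from 4.96 ± 1.76 to 9.92 ± 1.73 FPKM, HIST1H1E, a linker histone, from 1.17 ± 0.311 to 2.92 ± 0.511, and HIST1H4E from 0.291 ± 0.107 to 1.27 ± 0.332. HIST1H4E and HIST1H4B, which went from 0.592 ± 0.138 to 1.15 ± 0.0794, were under 1 FPKM in each control library. They entered the test through the PAL libraries alone and had to differ, so their calls among the 5 are no support. In the other direction HIST1H2AC went from 9.35 ± 1.16 to 4.29 ± 0.297 FPKM, HIST1H2BK from 83.7 ± 7.08 to 45.2 ± 3.10 and HIST1H2BD from 5.14 ± 0.858 to 2.98 ± 0.103. Histone genes of the same family can be close in sequence, so the split of reads within a family is uncertain. The part of poly-A selection in the rRNA values was not tested.

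**Figure D2:**
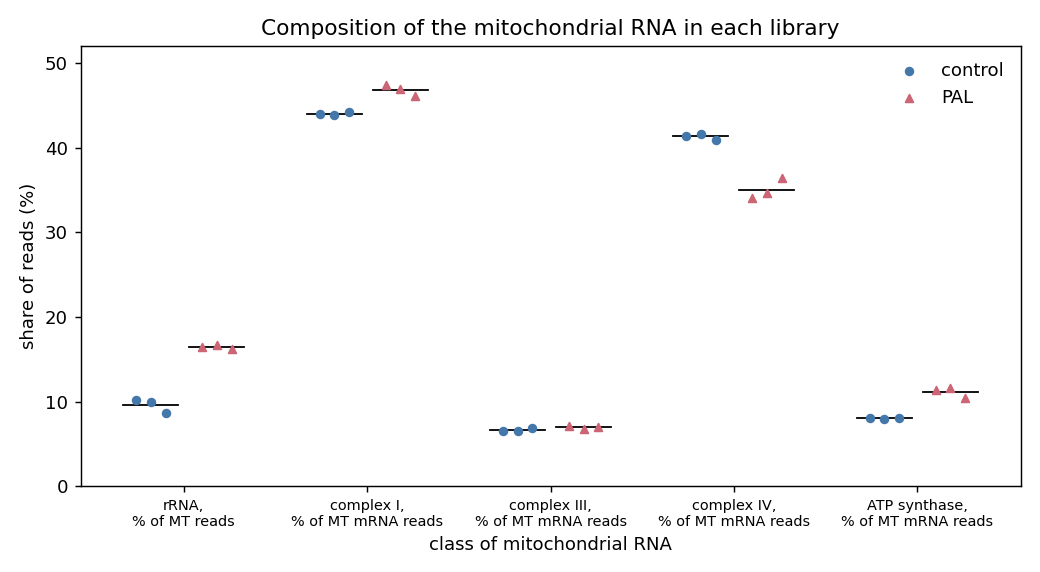
Share of mitochondrial reads on the 2 rRNA genes, and share of mitochondrial mRNA reads by respiratory complex (y axis, percent), in each control (circles) and PAL (triangles) library, with group means as lines. The rRNA share is 8.63% to 10.2% in control and 16.2% to 16.6% in PAL, the complex IV share is lower and the ATP synthase share higher in each PAL library.

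The mRNAs went both ways. Of 13 tested, 3 were higher and 5 lower, against 11.4% and 14.5% of all genes tested, and the median log2 change was -0.08. Grouped by complex, those of complex IV, the cytochrome c oxidase that passes electrons to oxygen, went from 41.3% ± 0.397 to 35.0% ± 1.24 of mitochondrial mRNA reads, while those of ATP synthase went from 8.02% ± 0.0719 to 11.2% ± 0.618 (n = 3 each). Complex I, the NADH dehydrogenase, went from 44.0% ± 0.161 to 46.8% ± 0.702, and complex III from 6.70% ± 0.212 to 6.98% ± 0.147. Groups did not overlap for complexes I and IV and ATP synthase (exact permutation p = 0.10, two-sided, for each, the smallest possible) and overlapped for complex III (p = 0.20). Since the shares sum to the whole, they are not independent, and they were chosen after the values were seen.

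Among the mRNAs of complex IV, MT-CO1 (positions 5904 to 7445), the catalytic subunit, changed most. It stood at 2410.4, 2424.9 and 2525.5 FPKM in control and 1449.8, 1582.8 and 1655.1 FPKM in PAL, and the groups were far apart. The log2 change was -0.65 ± 0.05 (SE, adjusted p in limma 2.17e-04). MT-CO2 (positions 7586 to 8269), which holds the copper site that takes electrons from cytochrome c, stood at 2657, 2700 and 2617 FPKM in control and 2214, 2487 and 2146 FPKM in PAL, a change of -0.22 ± 0.05 (adjusted p in limma 0.0238). That call was lost with no filter (0.128), plain read totals (0.0844), and without control replicate 1 (0.0626) or 2 (0.0739) or PAL replicate 1 (0.0780) or 3 (0.0529), over a range of adjusted p in limma from 2.44e-04 to 0.128. MT-CO3 (positions 9207 to 9990), a structural core subunit, stood at 2072, 2109 and 2262 FPKM in control and 2107, 2279 and 2112 FPKM in PAL. The groups overlapped there and the test did not pass (log2 change 0.01, adjusted p in limma 0.860).

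MT-ATP6 (positions 8527 to 9207), a membrane subunit of the ATP synthase proton channel, was the highest riser among the mRNAs. It stood at 2006, 1981 and 2103 FPKM in control and 2609.9, 2873.7 and 2348.9 FPKM in PAL. The groups did not overlap, with a log2 change of 0.36 ± 0.07 (adjusted p in limma 0.0111), a call lost with no filter (0.0612). By level it was the fifth mRNA in each control library and the first in each PAL library, whereas MT-CO1 went from rank 2 in each control library to rank 7, 6 and 6. The ratio of MT-CO1 to MT-ATP6 was 1.20, 1.22 and 1.20 in control and 0.556, 0.551 and 0.705 in PAL, so PAL replicate 3 stood closest to control.

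MT-ATP8 (positions 8366 to 8572) encodes a small subunit on the same mature mRNA as MT-ATP6. The genes share 46 bases (positions 8527 to 8572, plus strand), shown here with the start codon of MT-ATP6 and the stop codon of MT-ATP8 in capitals.
MT-ATP8 and MT-ATP6 shared bases: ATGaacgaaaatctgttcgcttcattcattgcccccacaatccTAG
Its 207 bases stood at 155, 152 and 163 FPKM in control and 176, 179 and 164 FPKM in PAL, a log2 change of 0.14 ± 0.04 (adjusted p in limma 0.0466). That call was lost in 8 of 17 alternatives, over a range of adjusted p in limma from 0.00652 to 0.138. MT-ATP6 was 13.0 ± 0.0464 times as high per length in control and 15.1 ± 0.881 times in PAL, although a mature transcript holds both. The labels do not say how reads that span both genes were counted, and the part of that in this ratio was not tested.

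**Figure D3:**
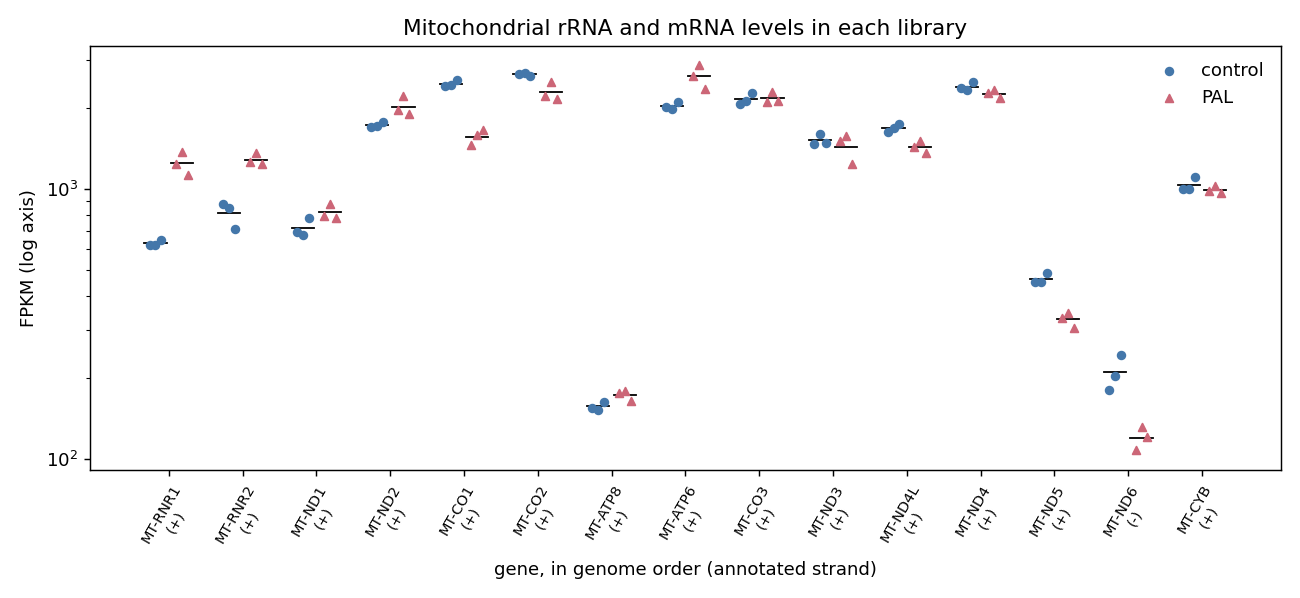
FPKM (y axis, log scale) of the 2 rRNA and 13 protein-coding mitochondrial genes in genome order with their annotated strand (x axis), in each control (circles) and PAL (triangles) library, with group means as lines. Both groups separate upward at MT-RNR1, MT-RNR2 and MT-ATP6 and downward at MT-CO1, MT-ND5 and MT-ND6, and overlap at MT-CO3 and MT-CYB.

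Complex I subunits split. MT-ND5 (positions 12337 to 14148), a proton-pumping subunit at the tip of the membrane arm, stood at 454, 454 and 489 FPKM in control and 332, 348 and 306 FPKM in PAL, a log2 change of -0.50 ± 0.05 (adjusted p in limma 0.00101). MT-ND4L (positions 10470 to 10766), a small membrane subunit, stood at 1624, 1688 and 1737 FPKM in control and 1427, 1509 and 1363 FPKM in PAL, a change of -0.23 ± 0.04 (adjusted p in limma 0.00926). The groups did not overlap in either gene, and the call of MT-ND4L was lost with no filter (0.0625). MT-ND2 (positions 4470 to 5511), another proton-pumping subunit, stood at 1689.9, 1713.8 and 1771.1 FPKM in control and 1961, 2207 and 1892 FPKM in PAL. Its rise of 0.22 ± 0.06 (adjusted p in limma 0.0271) was lost in 6 of 17 alternatives, over a range of adjusted p from 4.86e-04 to 0.127.

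The other heavy-strand mRNAs of complex I did not pass. MT-ND1, near the site where quinone binds, stood at 694, 674 and 782 FPKM in control and 796.3, 880.3 and 783.4 FPKM in PAL, a log2 change of 0.20 (adjusted p in limma 0.0713). The groups did not overlap, with the highest control library just under the lowest PAL library. It passed as higher in 7 of 17 alternatives, among them TPM (0.0161), quantile normalization (0.00713) and voom, limma's model of read counts, on recovered reads (0.00520). MT-ND4, a proton-pumping subunit, had a log2 change of -0.08 (adjusted p in limma 0.118). Its groups did not overlap, by a narrow margin, and it passed as lower with voom alone (0.0142). MT-ND3 had a log2 change of -0.09 (0.510), with overlapping groups. For complex III, MT-CYB, or cytochrome b, stood at 998, 1001 and 1111 FPKM in control and 985, 1023 and 963 FPKM in PAL, with overlapping groups and a log2 change of -0.06 (adjusted p in limma 0.346). After quantile normalization alone it passed as higher, at 0.20 (0.00524).

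The mRNAs were also grouped by how the gene ends. Among the 6 genes that need the poly-A tail to complete the stop codon (MT-ND1, MT-ND2, MT-CO3, MT-ND3, MT-ND4 and MT-CYB), 1 was higher and 0 lower, with log2 changes from -0.09 to 0.22. Among the 7 with a whole stop codon, 2 were higher, MT-ATP8 and MT-ATP6, and 5 lower, with log2 changes from -0.79 to 0.36. Over all genes tested, 11.4% were higher and 14.5% lower. MT-CO1 and MT-ND6, which end in AGA and AGG, had the largest falls. On the heavy strand, 3 mRNA genes are followed by at least 20 bases before the next gene on that strand. These were MT-CO1 with 72 bases, MT-CO2 with 25 and MT-ND5 with 598, and 3 of 3 fell, though the call of MT-CO2 was lost in 6 of 17 alternatives. Of the other 9 heavy-strand mRNA genes, 3 rose and 1 fell, MT-ND4L, which shares 7 bases with MT-ND4. These classes were seen after the values and are a description of 13 genes, without a test.

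Neighbours along the heavy-strand transcript were compared through their log2 ratio in each library, taken as the later gene minus the earlier one. The same ratios over all neighbouring tested genes of the genome, 10287 pairs on 1 strand of a chromosome, were fitted together with limma. Of the 13 mitochondrial pairs 10 passed, against 31.1% of all pairs, and 5 ratios were higher and 5 lower in PAL. Those that passed with a change of at least 0.3 were 8, against 19.9% of all pairs, and the groups did not overlap in 10, against 47% of all pairs. Pairs that follow each other share a gene, so the count is not made of independent values, and high levels make small differences easier to pass.

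The largest step was from MT-ND2 to MT-CO1. MT-CO1 was 1.42 ± 0.00647 times as high as MT-ND2 in control and 0.777 ± 0.0854 times in PAL, a change of the log2 ratio of -0.88 ± 0.07 (SE, adjusted p in limma 4.50e-06). From MT-CO1 to MT-CO2 the ratio moved back by 0.43 (adjusted p in limma 8.86e-04), then by 0.36 to MT-ATP8 (4.32e-04) and by 0.22 to MT-ATP6 (0.00525). It dropped by 0.35 from MT-ATP6 to MT-CO3 (5.37e-04). The direction of change thus turned at MT-CO1, where the ratio fell before and rose after the gene, and at MT-ATP6, where it rose before and fell after.

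A second turn lay at MT-ND5. The log2 ratio from MT-ND4 to MT-ND5 changed by -0.42 ± 0.04 (adjusted p in limma 2.17e-05) and that from MT-ND5 to MT-CYB by 0.44 ± 0.04 (2.29e-05). MT-CYB, at the end of the transcript, was therefore back near the change of MT-ND4. At the 5′ end the log2 ratio fell by 0.31 from MT-RNR1 to MT-RNR2 (0.0189) and by 0.47 from MT-RNR2 to MT-ND1 (0.00753). The first ratio was 0.13115 in control replicate 3 and 0.13057 in PAL replicate 3, so its groups were only just apart. The second was 0.14 in control replicate 3, against -0.34 and -0.33 in control replicates 1 and 2. The call from MT-RNR1 to MT-RNR2 was lost without control replicate 1 (0.0691) or 2 (0.0708) and without PAL replicate 1 (0.0635) or 2 (0.0717). It was also lost with no filter (0.0543), over a range of adjusted p in limma from 2.18e-04 to 0.0717.

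Within the bicistronic pair of MT-ND4L and MT-ND4 the log2 ratio rose by 0.15 (adjusted p in limma 0.0135), a call lost with no variance trend (0.0881) and without PAL replicate 1 (0.0680). The pairs from MT-ND1 to MT-ND2 (0.03, adjusted p in limma 0.662), MT-CO3 to MT-ND3 (-0.10, 0.345) and MT-ND3 to MT-ND4L (-0.15, 0.0923) did not pass. The first passed with the opposite sign after quantile normalization (-0.16, 0.0208). The last passed without PAL replicate 3 (-0.22, 0.00555) and with the replicate number as a block (0.0157). Across the 14 heavy-strand rRNA and mRNA genes Spearman's rho between position and log2 change was -0.59, and -0.35 over the 12 mRNAs alone. These points share libraries and a transcript, so rho is a description only.

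**Figure D4:**
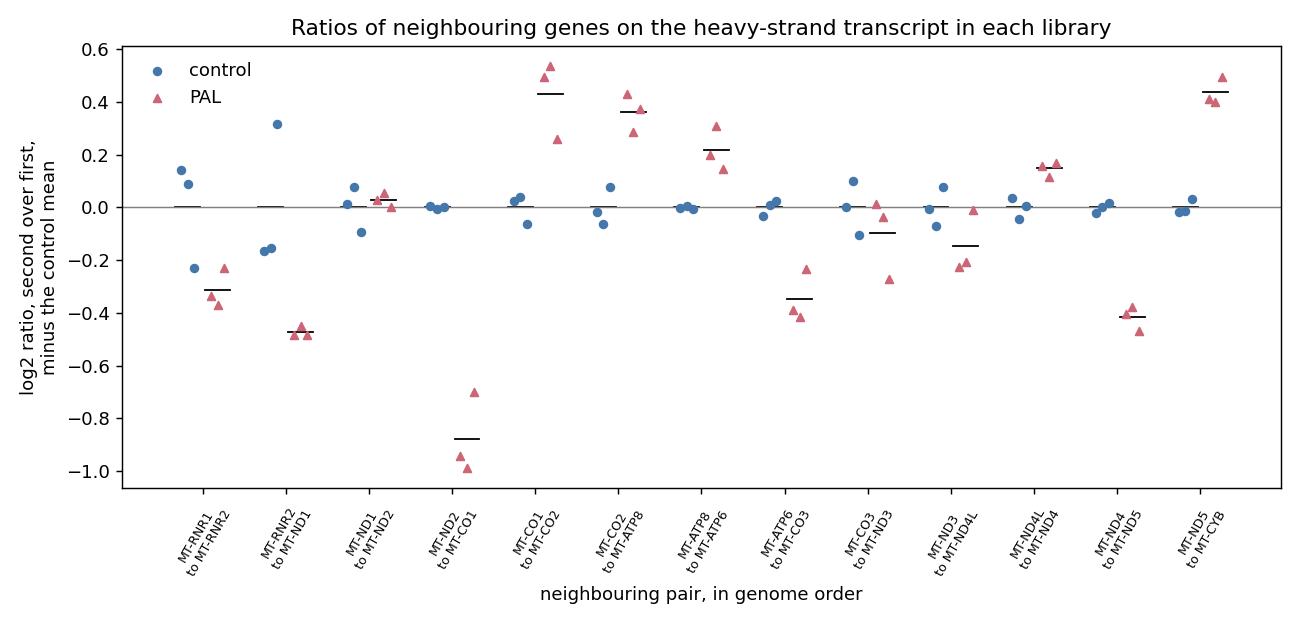
Log2 ratio of each later gene to the one before it on the heavy-strand transcript, minus the mean of the control libraries (y axis), for 13 neighbouring pairs in genome order (x axis), with circles for control, triangles for PAL and lines for group means. PAL ratios drop into MT-CO1 and MT-ND5 and rise out of them.

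Of 8 genes tested that are annotated on the light strand, 5 were lower in PAL and 0 higher, against 14.5% lower and 11.4% higher over all genes tested. MT-TN is among these 5 but entered the test through the control libraries alone, so its call is no support. MT-ND6 (positions 14149 to 14673, minus strand), the only light-strand mRNA, encodes a membrane subunit of complex I. It stood at 180.5, 203.3 and 243.6 FPKM in control and 107, 131 and 121 FPKM in PAL, and the groups did not overlap. The log2 change was -0.79 ± 0.11 (SE, adjusted p in limma 0.00398), the largest fall among the 13 mRNAs. Its 3′ end meets that of MT-ND5, which lies on the opposite strand. The ratio of MT-ND6 to MT-ND5 was 0.398, 0.448 and 0.498 in control and 0.323, 0.376 and 0.395 in PAL. The labels do not say whether counting used strand. Without strand, reads of MT-ND6 and of heavy-strand RNA that runs past MT-ND5 cannot be told apart, and the same holds for the light-strand tRNAs.

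The tRNA genes held few reads. All 22 together took 0.0603% ± 0.00273 of mitochondrial reads in control and 0.0402% ± 0.00686 in PAL. On the light strand, 8 tRNA genes summed to 91, 100 and 123 reads in control and 61, 52 and 63 in PAL, although PAL libraries held more mitochondrial reads. On the heavy strand, 13 tRNA genes other than MT-TT summed to 69, 53 and 54 reads in control and 89, 59 and 92 in PAL, with overlapping groups. Of 7 light-strand tRNA genes tested, 4 were lower and 0 higher, and of 8 on the heavy strand 1 was lower and 0 higher, against 14.5% lower over all genes tested. MT-TN and MT-TT, 1 on each strand, are among these falls, and both entered the test through the control libraries alone. The difference between both strands was not tested gene by gene. All light-strand genes, MT-ND6 included, went from 0.596% ± 0.0793 to 0.341% ± 0.0239 of mitochondrial reads (n = 3 each, exact permutation test, two-sided, p = 0.10, the smallest it allows). The difference of -0.255 percentage points was -0.0180 without MT-ND6, and -0.673 by summed FPKM. Like the tRNA share, it was chosen after the values were seen.

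MT-TQ held 12, 17 and 24 reads in control and 4, 5 and 7 in PAL, a log2 change of -1.69 ± 0.26 (adjusted p in limma 0.00474). MT-TY held 21, 28 and 27 reads in control and 14, 13 and 9 in PAL, a change of -1.22 ± 0.19 (0.00504). MT-TN held 7, 7 and 5 reads in control and 0, 1 and 1 in PAL. In these 3 genes no PAL library reached the level of a control library. For MT-TN the pooled control level was 11.0 times the PAL level, with an exact 95% counting interval of 2.66 to 97.6. It entered the test through the control libraries alone, so its call is no support. MT-TE, which lies directly between MT-ND6 and MT-CYB, stood at 24.7, 24.5 and 35.6 FPKM in control and 21.3, 14.8 and 18.1 FPKM in PAL. Its call (adjusted p in limma 0.0393) was lost in 9 of 17 alternatives, over a range of 0.0241 to 0.126.

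MT-TP held 11, 6 and 16 reads in control and 5, 1 and 6 in PAL. On the FPKM scale the groups did not overlap, but the test did not pass (log2 change -1.51, adjusted p in limma 0.0546), and it passed in 4 of 17 alternatives, voom among them (0.0312). MT-TS1, which lies opposite the sequence just after MT-CO1, was the light-strand tRNA with the smallest difference, at 11, 17 and 11 reads in control and 9, 15 and 16 in PAL (log2 change -0.17, adjusted p in limma 0.659). MT-TC, with 4 reads in control and 2 in PAL, and MT-TA, with 1 read in all, gave too few reads for a comparison.

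**Figure D5:**
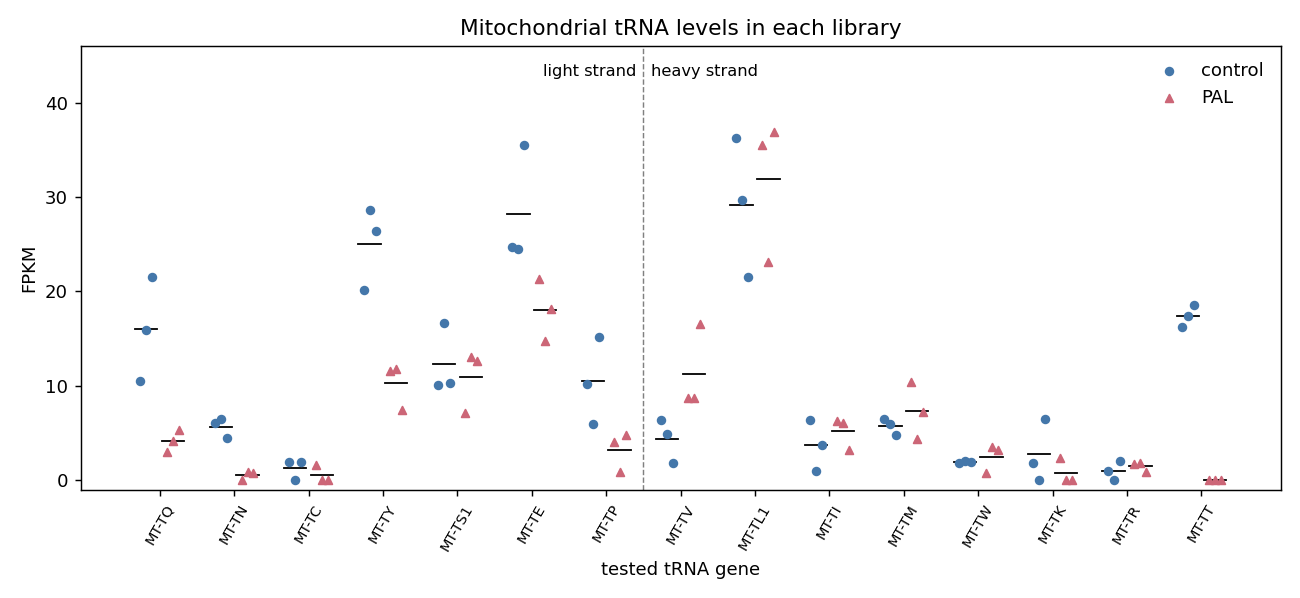
FPKM (y axis) of the 15 tested mitochondrial tRNA genes (x axis), light-strand genes on the left and heavy-strand genes on the right, in each control (circles) and PAL (triangles) library, with group means as lines. MT-TQ, MT-TN, MT-TY, MT-TE and MT-TP are lower in each PAL library on the left, while on the right MT-TT alone separates downward, at 0 in the 3 PAL libraries.

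MT-TT was on the heavy strand. It held 17, 17 and 19 reads in the control libraries and 0, 0 and 0 in the PAL libraries. Against a floor of 3 reads over the PAL group its level was at least 20.5-fold lower in PAL. It entered the test through the control libraries alone, so its call is no support. MT-TT follows MT-CYB with 0 bases between them on the same strand, and MT-CYB did not pass. It is followed, on the other strand, by MT-TP, which held 33 reads in control and 12 in PAL. Among the other heavy-strand tRNAs, MT-TV, which lies between both rRNA genes, had 7, 5 and 2 reads in control and 11, 10 and 21 in PAL (log2 change 1.24, adjusted p in limma 0.0532), and passed as higher in 7 of 17 alternatives. MT-TL1, which follows MT-RNR2, was at 36.2, 29.7 and 21.5 FPKM in control and 35.5, 23.2 and 36.9 FPKM in PAL, with overlapping groups (adjusted p in limma 0.716). The remaining 5 heavy-strand tRNAs tested, MT-TI, MT-TM, MT-TW, MT-TK and MT-TR, overlapped between groups, and MT-TW, at 1 to 4 reads a library, passed as higher only without PAL replicate 1 (adjusted p in limma 0.00575).

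Nuclear copies of mitochondrial genes can take reads from them. The table holds 407 such copies by name, of which 3 reached a mean of 1 FPKM in either group, in the same region of chromosome 1. MTATP6P1 (chromosome 1, 633696 to 634376) stood at 157, 157 and 188 FPKM in control and 219, 225 and 194 FPKM in PAL, a log2 change of 0.35 (adjusted p in limma 0.0244). MTCO1P12 (chromosome 1, 631074 to 632616) went from 4.10 ± 0.358 to 2.38 ± 0.509 FPKM, a change of -0.60 (0.00987). Both lay near the changes of the genes they copy, MT-ATP6 at 0.36 and MT-CO1 at -0.65. MTND2P28 (chromosome 1, 629640 to 630683) went from 83.7 ± 2.73 to 86.2 ± 1.68 FPKM and did not pass (0.04, 0.351). The gene it copies, MT-ND2, changed by 0.22 and passed (adjusted p in limma 0.0271). Levels of these gene and copy pairs are uncertain where the reads cannot be told apart.

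Nuclear genes that make and process mitochondrial RNA were set beside these values. Of 11 transcription genes tested, 3 were higher and 0 lower, with a median log2 change of 0.13. They were MRPL12, a ribosomal protein that binds the mitochondrial RNA polymerase, from 40.2 ± 1.48 to 49.5 ± 0.765 FPKM, MTERF3 from 16.9 ± 0.784 to 20.3 ± 0.432 FPKM, and POLRMT, the RNA polymerase itself, from 17.1 ± 0.704 to 20.1 ± 0.635 FPKM. TFAM, which packages the genome and starts transcription, named after its values were seen, stood at 19.3 ± 0.639 and 19.5 ± 0.203 FPKM (adjusted p in limma 0.810).

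Of 25 genes tested for RNA cleavage and modification, 5 were higher and 2 lower, with a median of 0.05. MRM1, a methyltransferase of the large mitochondrial rRNA, went from 7.39 ± 0.105 to 10.6 ± 0.649 FPKM, TRMU, which thiolates tRNAs, from 5.12 ± 0.343 to 6.29 ± 0.0826, and GTPBP3, another tRNA modifier, from 10.9 ± 0.684 to 12.4 ± 0.510. The lower ones were NSUN2, a tRNA methyltransferase, at -0.15, and MRM3, another rRNA methyltransferase, at -0.14. ELAC2 and TRMT10C, which cut or help cut tRNA ends and were named after their values were seen, had log2 changes of 0.05 and -0.02 and did not pass (adjusted p in limma 0.291 and 0.685). KIAA0391, the catalytic part of mitochondrial RNase P, was under the filter.

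In the list of RNA stability and decay, 3 of 18 genes were higher and 2 lower, with a median of 0.01. FASTK, whose mitochondrial form is needed for MT-ND6 mRNA, went from 11.6 ± 0.306 to 16.5 ± 0.882 FPKM, a log2 change of 0.48 ± 0.05 (adjusted p in limma 7.01e-04). FASTKD3 and TBRG4 of the same family changed by 0.27 and 0.18. LRPPRC, which stabilizes heavy-strand mRNAs and their tails, went from 26.9 ± 0.408 to 23.2 ± 0.881 FPKM, a change of -0.21 (adjusted p in limma 0.00654), and GRSF1, a protein of mitochondrial RNA granules, changed by -0.13 (0.0216). Over all genes tested, 25.9% passed in either direction, against 3 of 11, 7 of 25 and 5 of 18 in these lists.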

How the data were processed

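RNA-seq of 6 A375 libraries was analysed from 1 table of FPKM values deposited by the authors, with gene length, strand, biotype and position per the file headers. Samples were grouped by title. The submitters' processing notes name the build hg38. No source used here names the aligner, the counting tool or the use of strand. Each value, multiplied by its gene's length and divided by a step that is constant within a library, gave whole reads for 100% of values above 0 (within 0.01). Intervals and floors on reads cover counting error only. The floor for 0 reads was 3 reads over a group.

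Genes that reached 1 FPKM in 3 or more libraries entered limma 3.58.1 (R 4.3.3) on log2(FPKM + 1), with a variance trend and no block, two-sided, adjusted over all genes at 0.05. This scale understates changes of low genes. Neighbour ratios used protein-coding and mitochondrial rRNA genes in genome order on 1 strand, with the variance trend on the mean level of the pair. Shares used exact permutation over libraries. Both fits were tested on simulated data. The members and lists were chosen with earlier results of these data known. All members were named, with up to 3 rises and 3 falls that passed per nuclear list. Alternatives were pseudocount, filter, scaling, variance model, block, voom on recovered reads, biotypes in pairs and each library left out. Figures used matplotlib 3.10.9.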

Additional observations from a re-analysis of the deposited data

How the results depend on the processing

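Of the 15 mitochondrial genes called, 15 kept their direction in each of 16 or 17 alternatives, and 9 (MT-RNR1, MT-RNR2, MT-CO1, MT-ND5, MT-ND6, MT-TQ, MT-TN, MT-TY and MT-TT) passed in each. Without MT-TN and MT-TT, which entered the test through control alone, these were 7 of 13. Of 10 neighbour pairs called, 10 kept their direction and 8 passed in each of 14 or 15 alternatives. Few reads limit the tRNA genes. The causes of the shifts below were not tested.

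The count of genes called, 3179, was 2103 with no filter and 1891 when scaled by mitochondrial reads, and 1855 to 2789 when 1 library was left out (2051 without control replicate 2, 1972 without PAL replicate 1, 1855 without PAL replicate 2). The 5 mitochondrial genes called higher were 2 with no filter, 8 after quantile normalization and 3 with no variance trend, and 3 to 6 when 1 library was left out (3 without control replicate 2). With the replicate number as a block they were 3 (11 lower), and all genes called were 2131. The values showed no sign that the numbers pair the samples, though so few libraries cannot exclude it. Deviations of same-numbered libraries correlated at -0.04 to 0.03 over 3 pairs, and 1 of 3 control libraries correlated best with its own number.

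From reads to summed FPKM, the PAL minus control difference in share moved from 0.104 to 0.394 percentage points for the mitochondrial share, from 6.87 to 5.19 for rRNA and from -0.255 to -0.673 for the light strand, which was -0.0180 without MT-ND6, a choice made after seeing the data. Signs turned only for genes or pairs that had not passed. With quantile normalization the log2 changes became 0.029 for MT-ND4, 0.046 for MT-ND3, 0.20 for MT-CYB, -0.16 for the ratio from MT-ND1 to MT-ND2 and 0.028 for that from MT-CO3 to MT-ND3. With plain read totals they became 0.0013 for MT-ND4, 6.93e-05 for MT-ND3 and 0.021 for MT-CYB, and as TPM 0.0067 for MT-CYB. With 1 library left out, the log2 change ran from -0.025 to 0.051 for MT-CO3, -0.15 to 0.019 for MT-ND3, -0.069 to 0.33 for MT-TL1, -0.31 to 0.085 for MT-TS1, -0.0093 to 0.53 for MT-TM, -0.085 to 0.58 for MT-TW and -0.012 to 0.78 for MT-TR, and from -0.016 to 0.068 for the ratio from MT-ND1 to MT-ND2.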

Other observations

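Genes that copy and maintain the mitochondrial genome were looked at beside those that transcribe it. Of 15 tested, 2 were lower and 0 higher in PAL, with a median log2 change of 0.01, against 14.5% lower over all genes tested. TWNK, the helicase of mitochondrial DNA replication, went from 28.5 ± 1.17 to 23.6 ± 0.706 FPKM (log2 change -0.26 ± 0.04, adjusted p in limma 0.00476). SLC25A33, a carrier of pyrimidine nucleotides into mitochondria, went from 12.4 ± 0.692 to 8.27 ± 0.172 FPKM (-0.53 ± 0.05, adjusted p in limma 4.71e-04). No genome copy number was measured.

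Of the 7 mitochondrial genes under the filter, all tRNAs, MT-TS2 and MT-TL2 had 0 reads in the 6 libraries. MT-TD had 1 read in all, MT-TG 3 in control and 3 in PAL, MT-TH 3 and 1, and MT-TF 7 and 1.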
